A study of Sus scrofa with 2 samples.

Results

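Genes that move calcium into, out of and around the sarcoplasmic reticulum (SR), the calcium store of muscle fibers, were examined in the longissimus dorsi muscle (LM) of Shaziling and Yorkshire pigs. The genes were ATP2A1, ATP2A2, CASQ1, PVALB and DHRS7C. A unigene, an assembled transcript sequence, was assigned to 1 of these genes when its best match in the nr protein database was a pig RefSeq protein of the gene, or when the authors' supplementary list of different unigenes gave it the UniProt name of that protein. This rule found 8 of the 65535 unigenes of the deposited table, and all 5 genes were represented. Through RefSeq accessions, 5698 unigenes of the table received 1 of 4484 gene symbols. The unigene with the highest mean RPKM (reads scaled by unigene length and by library total) represented each gene.

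The samples were LM of male full-sibs at 25 days of age, 3 from the Shaziling breed, an indigenous pig of China, and 3 from the Yorkshire breed, a lean pig with fast growth. No treatment is given for any pig. Within each breed the pigs were full-sibs, so breed and litter cannot be told apart. Each breed had 1 column of reads that lists 3 animals, and it was treated as 1 library. No spread between pigs could therefore be computed, and no difference below has a replicate check. The intervals are 95% intervals that cover counting error only. The library totals behind the RPKM values were 33949238 reads for Yorkshire and 28305925 for Shaziling. The table used here does not hold all assembled unigenes, and its unigenes were covered by 29537057 reads in Yorkshire and 20575805 in Shaziling, so ranks and scalings describe the listed unigenes. Of these totals, a pair of mitochondrial unigenes took 46.4% in Yorkshire and 11.8% in Shaziling, which lowers the RPKM of all other unigenes more in Yorkshire. Sample titles and column names give the same breeds and were followed, although another field of the sample records calls the Yorkshire sample indigenous and the Shaziling sample lean.

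In a muscle fiber, an action potential opens the ryanodine receptor of the SR through the voltage sensor of the T-tubule, and the released calcium binds troponin C. The fiber relaxes when SERCA pumps, the calcium ATPases of the SR membrane, return calcium to the store. ATP2A1 encodes SERCA1, the pump of fast fibers. ATP2A2 encodes SERCA2, with a form of slow fibers and heart and a longer form found in many cell types. CASQ1 encodes calsequestrin 1, which binds calcium inside the SR. PVALB encodes parvalbumin, a calcium buffer of the cytosol of fast fibers rather than an SR protein. DHRS7C encodes a short-chain dehydrogenase/reductase family protein of the SR of striated muscle.

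With the values as deposited, the RPKM of all 5 genes was higher in Shaziling than in Yorkshire, by 1.23 to 4.82 times. For ATP2A2 this direction turned under every other scaling tried. Over the 4041 genes with a symbol and an RPKM of 1 or more, the lower quartile of the log2 ratio was 0.024. Most genes were thus higher in Shaziling as deposited, so this direction is not particular to the 5 genes. A ratio of 2 or more was found for DHRS7C, PVALB and ATP2A1. CASQ1 stayed just under it and ATP2A2 differed least. These 3 of 5 genes stand against 39.2% of the 4041 genes with a symbol and an RPKM of 1 or more in either library, which were 2 times or more higher in Shaziling. The share of such genes 2 times or more higher in Yorkshire was 4.06%, and 0 of the 5 were among them. Among the 882 genes with a mean RPKM of 10 or more, which is closer to the levels of the 5 genes, the shares were 30.6% and 2.83%. Of the 8 unigenes, 6 were 2 times or more higher in Shaziling and 0 in Yorkshire. Over the 37352 unigenes that reached 1 RPKM in either library, the shares were 39.6% and 15.3%. Nothing is read from this count, because all 6 are on the list of different unigenes and a pair of them was named only through it. The unigenes that represent ATP2A1, PVALB and DHRS7C are among these 6, so the count of 3 genes is not free of that list. Those of ATP2A2 and CASQ1 were named by the nr match alone. Only 5 genes were counted, so no share of them is set apart from these backgrounds. In bulk muscle, fewer cells of a type and less RNA per cell cannot be told apart.

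**Figure D1:**
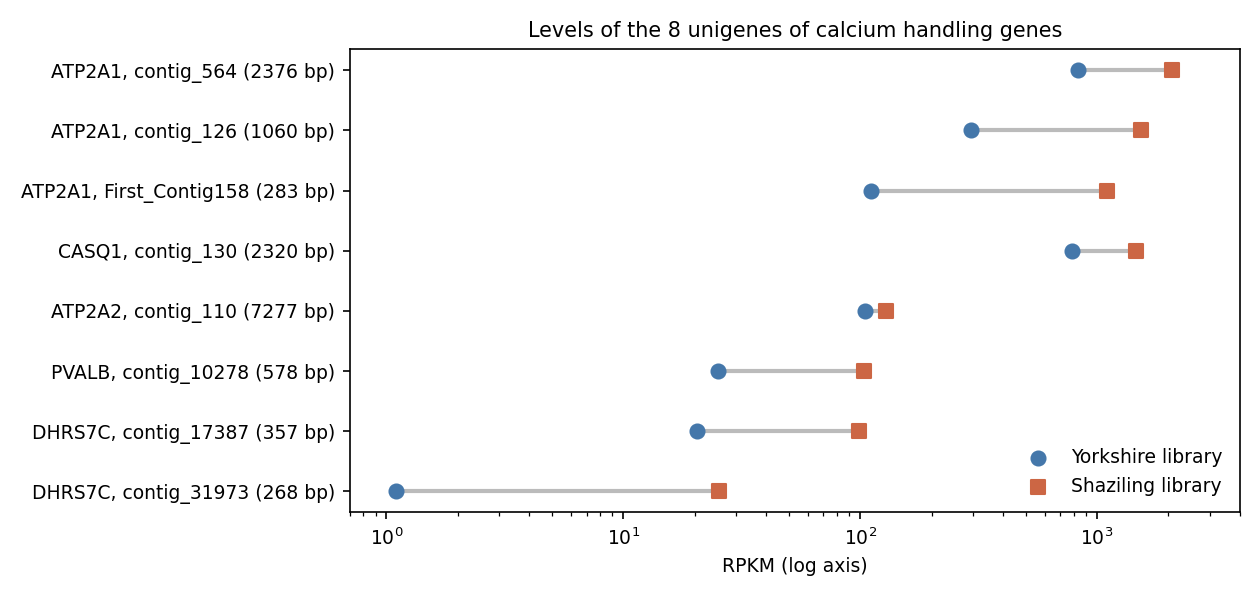
RPKM (log axis) of the 8 unigenes of the 5 genes in the Yorkshire library (circles) and the Shaziling library (squares), with the unigene length in bp. As deposited, all 8 lie higher in the Shaziling library, from 1.23 times for ATP2A2, whose direction turns under the other scalings, to 23.1 times for the shorter DHRS7C unigene. Most unigenes lie higher there as well: the median log2 ratio of the 37352 unigenes that reached 1 RPKM in either library was 0.61.

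ATP2A1, the fast pump, had the highest RPKM of the 5 genes in both libraries when each gene was represented by its most abundant unigene. The ATP2A1 unigene, contig_564 (2376 bp, matched to a protein of 993 residues), was covered by 66859 Yorkshire reads (829 RPKM) and 139558 Shaziling reads (2075 RPKM). It ranked 25th by RPKM among the unigenes of the table in the Yorkshire library and 16th in the Shaziling library. Its reads made up 0.197% of all Yorkshire reads and 0.493% of all Shaziling reads. The ratio of Shaziling to Yorkshire was 2.50 (95% interval 2.48 to 2.53).

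Another pair of unigenes carried the ATP2A1 name, only through the UniProt names of the supplementary list. That list holds unigenes chosen for their difference, so the ratios of these unigenes are given as a description. Contig_126 (1060 bp) was covered by 10584 Yorkshire reads (294 RPKM) and 45947 Shaziling reads (1531 RPKM). Its ratio was 5.21 (95% interval 5.10 to 5.32). First_Contig158 (283 bp) was covered by 1072 Yorkshire reads (112 RPKM) and 8817 Shaziling reads (1101 RPKM), with a ratio of 9.86 (95% interval 9.26 to 10.5). The 3 unigenes thus agreed in direction, but their ratios differed by 3.94 times from smallest to largest, far beyond counting error. SERCA proteins are similar to each other, and the nr matches of contig_126 and First_Contig158 carried no pig RefSeq accession. These matches were proteins of 1018 and 1023 residues, against 993 for contig_564. Whether the 3 unigenes belong to the same gene was not tested. Reads can be split among similar transcripts, and a part of other SERCA transcripts in contig_126 and First_Contig158 was not tested. With the reads and lengths of the 3 unigenes summed, the level was 622 RPKM (Yorkshire) and 1846 RPKM (Shaziling), with a ratio of 2.97 (95% interval 2.94 to 2.99). This summed level was below that of CASQ1 in Yorkshire and above it in Shaziling.

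ATP2A2, the pump of slow fibers and other cells, was represented by contig_110, a long unigene of 7277 bp matched to a protein of 1042 residues. The table does not separate the products of this gene. Contig_110 was covered by 25864 Yorkshire reads (105 RPKM) and 26489 Shaziling reads (129 RPKM). The ratio was 1.23 (95% interval 1.21 to 1.25). This direction held only for the RPKM values as deposited: under each of the other 4 scalings of the libraries, the ATP2A2 level was lower in Shaziling, with a log2 ratio between -0.42 and -0.06.

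The ratio of the fast to the slow pump within a library does not depend on how the libraries are scaled. In Yorkshire, the RPKM of ATP2A1 was 7.92 times that of ATP2A2. In Shaziling, it was 16.1 times. The fast to slow ratio was therefore 2.04 times as large in the Shaziling library (95% interval 1.999 to 2.08). The size of this difference depended on the ATP2A1 unigene. With contig_126 in its place, the ratios were 2.81 and 11.9, and with First_Contig158 they were 1.07 and 8.56. With the 3 unigenes summed, they were 5.94 in Yorkshire and 14.4 in Shaziling, or 2.42 times as large. The fast pump was thus the more abundant form in both libraries. The values with contig_126, First_Contig158 and the sum are a description and no further support, because these unigenes were named through the list of different unigenes. Contig_564 is on that list too, although its nr match named it as well.

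Other fast and slow isoform pairs of the fixed list were compared in the same way where both forms were found. For fast and slow myosin heavy chain, the RPKM of MYH4 (contig_11) was 3.29 times that of MYH7 (contig_7) in Yorkshire and 6.28 times in Shaziling, a change of 1.91 times (95% interval 1.89 to 1.92). With the other MYH4 unigene, contig_53, the ratios were 3.63 and 3.98, a change of 1.10 times. Reads of myosin heavy chains can be shared among their similar transcripts. The pair of troponin I, the inhibitory subunit of troponin, went the other way. TNNI2, the fast form, had 21.5 times the RPKM of TNNI1, the slow form, in Yorkshire and 13.4 times in Shaziling, so the Shaziling ratio was 0.626 of the Yorkshire ratio (95% interval 0.606 to 0.647). Both troponin I forms were named only through the supplementary list of different unigenes. The fast to slow ratio was thus larger in Shaziling for the pump and myosin pairs and smaller for the troponin I pair.

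**Figure D2:**
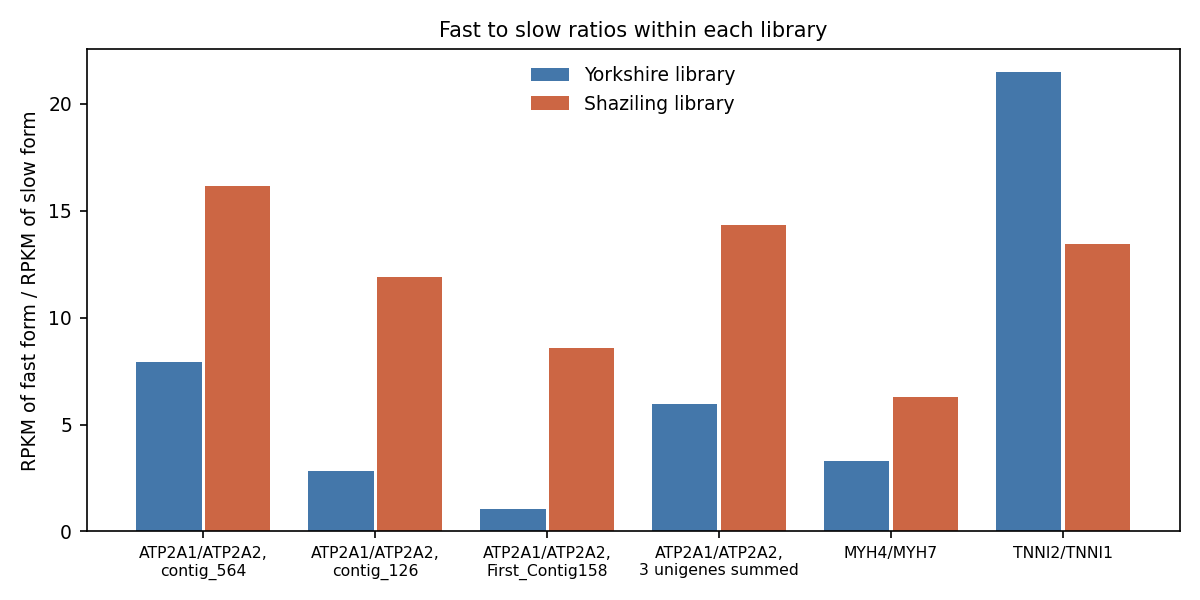
RPKM of the fast form divided by the RPKM of the slow form in the Yorkshire library (blue bars) and the Shaziling library (orange bars), for the calcium pump with each ATP2A1 unigene and their sum, and for myosin heavy chain (MYH4/MYH7) and troponin I (TNNI2/TNNI1). The pump ratio with contig_564 is 7.92 in Yorkshire and 16.1 in Shaziling, the bars with contig_126 and First_Contig158 rest on unigenes named through a list of differences, and the troponin I ratio is smaller in Shaziling.

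CASQ1, the calcium-binding protein of the SR lumen, had a level close to that of contig_564 of the fast pump in Yorkshire. Its only unigene, contig_130 (2320 bp, matched to a protein of 402 residues), was covered by 61504 Yorkshire reads (781 RPKM) and 96092 Shaziling reads (1463 RPKM). The ratio was 1.87 (95% interval 1.85 to 1.89), just under 2. CASQ1 was therefore higher in Shaziling by less than ATP2A1. Relative to the RPKM of ATP2A1, its level was 94.2% in Yorkshire and 70.5% in Shaziling. The ratio of ATP2A1 to CASQ1 was 1.34 times as large in Shaziling (95% interval 1.32 to 1.35).

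PVALB, the cytosolic buffer, was present at a much lower level than the fast pump. Contig_10278 (578 bp, matched to a protein of 110 residues) was covered by 495 Yorkshire reads (25.2 RPKM) and 1703 Shaziling reads (104 RPKM). The ratio was 4.13 (95% interval 3.73 to 4.57). It ranked 1056th by RPKM in Yorkshire and 363rd in Shaziling. The RPKM of PVALB was 3.04% of that of ATP2A1 in Yorkshire and 5.02% in Shaziling, and its ratio was 1.65 times that of the fast pump (95% interval 1.49 to 1.82).

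DHRS7C had the largest ratio of the 5 genes, on short unigenes with few reads. Contig_17387 (357 bp) was covered by 249 Yorkshire reads (20.5 RPKM) and 1001 Shaziling reads (99.1 RPKM). The ratio was 4.82 (95% interval 4.19 to 5.56). A shorter unigene of the same protein of 311 residues, contig_31973 (268 bp), had 10 reads in Yorkshire and 193 in Shaziling. Its RPKM was 1.10 and 25.4, and its ratio was 23.1 with a wide 95% interval of 12.3 to 49.0. Both unigenes were higher in Shaziling, and the ratios differed by 4.80 times. With both summed, the ratio was 5.53 (95% interval 4.83 to 6.35). The ratio of DHRS7C was 1.17 times that of PVALB, with an interval of 0.985 to 1.39 that includes 1, so the order of these genes by ratio is not resolved at this depth.

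With the most abundant unigene of each gene, the order of the levels per length was the same in both libraries, from ATP2A1 through CASQ1, ATP2A2 and PVALB to DHRS7C. With the ATP2A1 unigenes summed, CASQ1 (781 RPKM) stood above ATP2A1 (622 RPKM) in Yorkshire, while ATP2A1 stayed first in Shaziling. The spacing differed between the libraries. In Yorkshire, the RPKM of ATP2A1 was 1.06 times that of CASQ1 (95% interval 1.05 to 1.07), and in Shaziling 1.42 times. Between CASQ1 and ATP2A2, the step was 7.46 times in Yorkshire and 11.4 times in Shaziling. The step from ATP2A2 to PVALB was 4.15 times in Yorkshire and 1.24 times in Shaziling. PVALB and DHRS7C, the neighbors at the lower end, differed by 1.23 times in Yorkshire (95% interval 1.05 to 1.43), and in Shaziling their levels were not distinguishable (1.05 times, 95% interval 0.972 to 1.14).

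The median log2 ratio of the 5 genes was 1.32 (ATP2A1), and that of the 4041 genes with a symbol was 0.68. Among the 882 genes with a mean RPKM of 10 or more, the median was 0.53. In this set, 5.90% of the genes had a larger ratio than DHRS7C and 8.5% a larger ratio than PVALB. For ATP2A1 the share was 21.0%, for CASQ1 33.2% and for ATP2A2 60.9%. DHRS7C and PVALB thus lay in the upper part of the distribution and ATP2A2 below its middle. The unigenes that represent DHRS7C, PVALB and ATP2A1 are on the list of different unigenes. Their places and the median of the 5 genes are therefore not free of that list and are given as a description. Of the 76 other genes with a symbol and a mean RPKM of 100 or more, those with the log2 ratio nearest to that of ATP2A1 over the 2 libraries were DES (ratio 2.49), MYH4 (2.54) and SLC25A4 (2.35). The distances were 0.0060, 0.020 and 0.092 on the log2 scale.

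**Figure D3:**
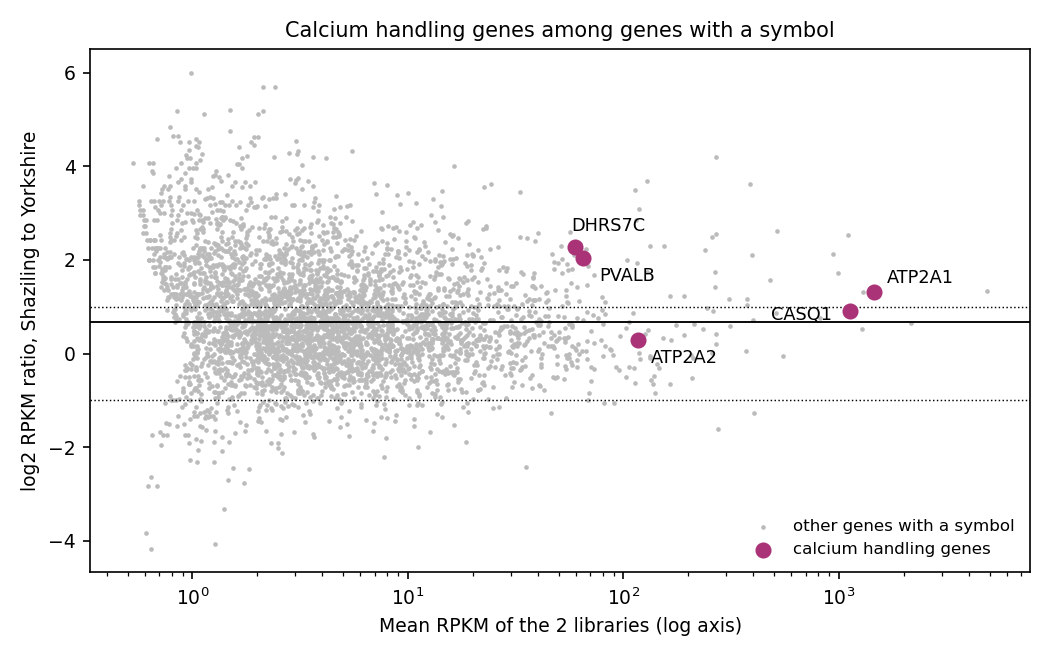
Log2 RPKM ratio of Shaziling to Yorkshire against the mean RPKM of both libraries (log axis) for 3980 genes with a symbol and reads in both libraries (grey points) and the 5 calcium handling genes (large purple points). The solid line is the median of all genes with a symbol (0.68), and the dotted lines mark a ratio of 2 in either direction. DHRS7C, PVALB and ATP2A1 lie above the upper one, and their unigenes are on the list of different unigenes.

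The directions were compared under other scalings, because the mitochondrial share differed between the libraries. Rescaling to the same RPKM sum lowered each log2 ratio by 0.43, and rescaling to a median log2 ratio of 0 (over 2363 unigenes that reach 10 RPKM in each library) by 0.35. TMM scaling lowered them by 0.44, and library totals without the mitochondrial pair by 0.72. PVALB and DHRS7C stayed 2 times or more higher in Shaziling under each of these, with lowest ratios of 2.51 and 2.93. The ratio of ATP2A1 stayed above 1 but was below 2 under each of them, between 1.52 and 1.96. CASQ1 also kept its direction, with a lowest ratio of 1.14. ATP2A2 was the only one of the 5 genes with a change of direction. Under these scalings 2 of the 5 genes were 2 times or more higher in Shaziling, against 21.2% to 29.0% of all genes with a symbol, and 8.22% to 16.5% of all genes were 2 times or more higher in Yorkshire. As deposited, 90.6% of the genes with a symbol past 2-fold in either direction were higher in Shaziling, and this share was 74.5% with the same RPKM sum, 77.9% with a median of 0, 74.0% with TMM and 56.3% without the mitochondrial pair.

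**Figure D4:**
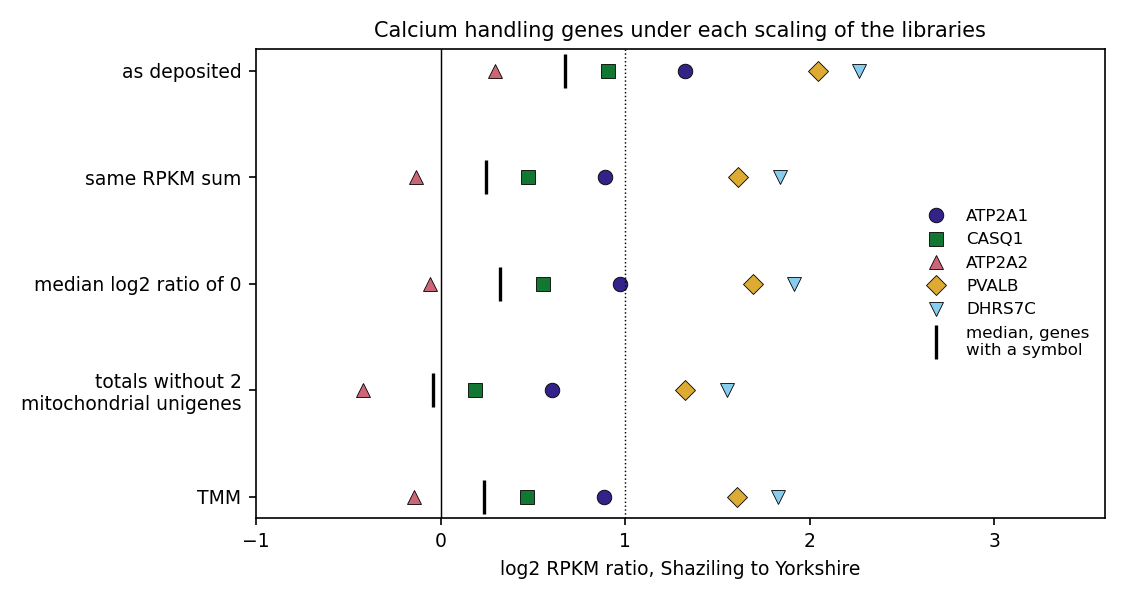
Log2 RPKM ratio of Shaziling to Yorkshire for the 5 genes (symbols) and the median of the 4041 genes with a symbol (black ticks) with the RPKM values as deposited and under 4 other scalings. The dotted line marks a ratio of 2, which PVALB and DHRS7C pass under every scaling shown, and ATP2A2 lies below 0 under all but the deposited values.

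The other genes of calcium handling came from 7 lists with 59 genes, of which 19 were found by the nr match and 18 had an RPKM of 1 or more. Of these 18, 10 were 2 times or more higher in Shaziling (55.6%), 0 were 2 times or more higher in Yorkshire and 8 lay in between. Their median log2 ratio was 1.11. Over all genes with a symbol, 39.2% were 2 times or more higher in Shaziling and the median was 0.68. ORAI3 is counted among the 10 but reached 1 RPKM only in Shaziling, on 13 reads, and with a pseudocount of 1 the count was 8. With the same RPKM sum, a median of 0 or TMM, 5 of the 18 were 2 times or more higher in Shaziling, and over all genes with a symbol the shares were 27.3%, 29.0% and 27.0%. Without the mitochondrial pair, 4 of the 18 and 21.2% of all genes were. CACNG1, BIN1, SRL and ORAI3 were past 2-fold under every scaling and TMEM38B under all but the last, while RYR1, STIM1, ORAI1, ATP2B1 and PPP3CA were under 2-fold in each scaling other than the deposited one.

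Of the release channels and their partners, RYR1, the ryanodine receptor of skeletal muscle, had the highest mean RPKM of the 18. Its unigene contig_129 (13089 bp) was covered by 46008 Yorkshire reads (104 RPKM) and 89187 Shaziling reads (241 RPKM). The ratio was 2.32 (95% interval 2.30 to 2.35). The RPKM of RYR1 was 0.125 of that of ATP2A1 in Yorkshire and 0.116 in Shaziling, a change of 0.929 times (95% interval 0.915 to 0.942). ITPR3, an inositol trisphosphate receptor, had 6 Yorkshire and 9 Shaziling reads and an interval of its ratio from 0.572 to 6.14. Of the triad and voltage sensor genes, CACNG1, the gamma subunit of the voltage sensor, had 24.8 RPKM in the Yorkshire library and 212 RPKM in the Shaziling library, a ratio of 8.54 (95% interval 7.92 to 9.22). BIN1, which shapes T-tubule membranes, had 41.8 RPKM (Yorkshire) and 167 RPKM (Shaziling) and a ratio of 3.99. CACNG1 and BIN1 were the only 2 of the 10 genes of this list found by the nr match, and both were past 2-fold in Shaziling. Over all genes with a symbol the share was 39.2%, so nothing is read from this count.

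The genes of the SR lumen and junction did not go one way. SRL (sarcalumenin), a calcium-binding protein of the SR lumen, had 48.2 RPKM in the Yorkshire library and 184 RPKM in the Shaziling library, a ratio of 3.81 (95% interval 3.72 to 3.90). TMEM38B, a cation channel of the SR and endoplasmic reticulum, had 5.57 RPKM (Yorkshire) and 15.4 RPKM (Shaziling) and a ratio of 2.78. HRC, a histidine-rich calcium-binding protein of the lumen, was lower in Shaziling, with 107 RPKM in the Yorkshire library and 83.7 RPKM in the Shaziling library (ratio 0.781, 95% interval 0.752 to 0.810). Relative to CASQ1, the RPKM of HRC was 0.137 in Yorkshire and 0.0572 in Shaziling, while that of SRL was 0.0618 and 0.126. The chaperones of the endoplasmic reticulum, CALR and HSP90B1, had ratios of 0.933 and 1.17, and that of HSP90B1 was below 1 under each other scaling.

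PLN, phospholamban, which inhibits the SERCA2 pump, was the only gene of the pump regulators that was found. Its unigene contig_219 (2871 bp) was covered by 5385 Yorkshire reads (55.2 RPKM) and 3159 Shaziling reads (38.9 RPKM). The ratio was 0.704 (95% interval 0.673 to 0.735), the lowest of the 18, and it was below 1 under each scaling. Per length, PLN had 0.528 of the level of ATP2A2 in Yorkshire and 0.302 in Shaziling, a change of 0.573 times (95% interval 0.546 to 0.600). The inhibitor thus had a lower level relative to the slow pump in the Shaziling library.

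Store-operated calcium entry refills the store through the SR sensors STIM1 and STIM2 and the ORAI channels of the surface membrane. STIM1 had 4.73 RPKM in the Yorkshire library and 11.9 RPKM in the Shaziling library (ratio 2.53, 95% interval 2.22 to 2.88). ORAI1 had 5.24 RPKM (Yorkshire) and 10.7 RPKM (Shaziling) and a ratio of 2.05, with an interval of 1.74 to 2.42 that includes 2. STIM2 lay just under 2-fold, with a ratio of 1.92 on 63 and 101 reads. ORAI3 had 2 reads in Yorkshire and 13 in Shaziling, and the interval of its ratio of 7.80 reached from 1.76 to 71.2. ATP2B1, the calcium pump of the surface membrane, had a ratio of 2.34, and MCU, the mitochondrial calcium uniporter, had a ratio of 1.32. The direction of MCU turned under some of the other scalings, with a lowest log2 ratio of -0.32. PPP3CA and PPP3CB, the catalytic subunits of calcineurin, had ratios of 2.26 and 1.75.

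The supplementary list of different unigenes names 3 more genes of the lists, and their ratios are a description because that list holds differences only. JPH2 (junctophilin 2, which ties T-tubule and SR together; contig_3002) had 13.0 RPKM in the Yorkshire library and 68.9 RPKM in the Shaziling library. TRDN (triadin, a junctional partner of calsequestrin; contig_1792, 230 bp) was higher in Yorkshire, with 168 reads against 24. CALU (calumenin, a luminal calcium-binding protein; contig_616, 237 bp) had 288 reads in Yorkshire and 119 in Shaziling. The genes of the lists without a match, such as CASQ2, SLN and JPH1, were not analysed here.

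**Figure D5:**
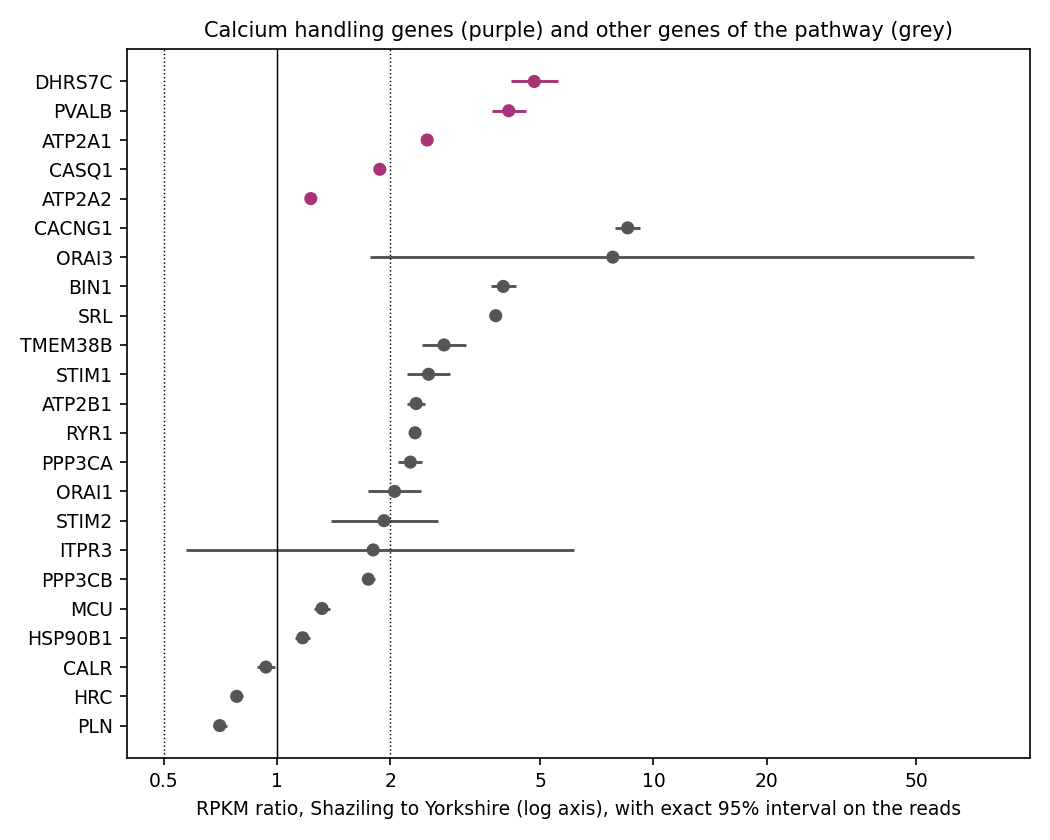
RPKM ratio of Shaziling to Yorkshire (log axis) with exact 95% intervals on the reads for the 5 calcium handling genes (purple) and the 18 other genes of calcium handling with an RPKM of 1 or more (grey). Dotted lines mark a ratio of 2 in either direction. As deposited, the grey genes with whole intervals above the upper line are CACNG1, BIN1, SRL, TMEM38B, STIM1, ATP2B1, RYR1 and PPP3CA. Of these, STIM1, ATP2B1, RYR1 and PPP3CA have ratios under 2 in each other scaling, and TMEM38B has with library totals without the mitochondrial pair. PLN, HRC and CALR lie below 1.

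Markers of the cell types that LM can hold were read beside these values. Of the 8 muscle fiber markers, DES and MYLPF were found by the nr match and lay between 325 and 1867 RPKM. Their summed RPKM was 1062 (Yorkshire) and 3706 (Shaziling). The Shaziling level was 2.49 times the Yorkshire level for DES and 5.75 times for MYLPF. ATP2A1 (2.50), PVALB (4.13) and DHRS7C (4.82) had ratios between these values, and CASQ1 (1.87) and ATP2A2 (1.23) lay below both. The part of fiber content in the ratios of the 5 genes was not tested. The summed RPKM of the 4 fibroblast markers found of 6 (COL1A2, COL3A1, DCN and LUM) was 721 in Yorkshire and 685 in Shaziling, and that of the endothelial markers (3 of 5) was 35.2 and 58.5. For red blood cell markers (2 of 3), the sums were 18.9 and 212. For adipocyte markers (2 of 5), they were 27.5 and 52.1. None of these markers was at 0 in a library. ATP2A2, which other cells use as well, had a ratio of 1.23, and the fibroblast markers had ratios from 0.505 to 1.24. The part of these cell types in the ATP2A2 level was not tested. The markers of leukocytes, smooth muscle and heart muscle were not analysed here.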

How the data were processed

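The authors sequenced LM RNA of both breeds by Illumina sequencing, assembled the trimmed reads into unigenes with CLC Genomics Workbench and CAP3, and matched the unigenes to the nr and UniProt databases. As deposited, the counts of reads per unigene are not normalized, and the program that made them is not given in the sources used here. For RPKM, the authors used Qualimap, and the totals behind the deposited RPKM values were derived from counts and lengths and were the same for all unigenes of a library. Unigene lengths are deposited in bp. A separator is missing in the line of column names, so columns were taken by order. The submitters' processing notes also list CASAVA 1.8, TopHat2 2.0.6 and the build mm10 without a role. Whether the pigs of a breed were pooled before sequencing is not given there either. The number of per-sample columns not used was 0.

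Gene symbols came from the RefSeq accession or Swiss-Prot entry in the nr match (symbols of assembly Sscrofa11.1), and for the 5 genes also from the UniProt names in the supplementary list of different unigenes, of which 407 of 484 unigenes were in the table. Ratios are RPKM values without a pseudocount, with exact Clopper-Pearson intervals on the reads. Intervals of ratios between unigenes assume Poisson counts on a log scale. A gene was called at a ratio of 2 across all genes with an RPKM of 1 or more; no test was made, since each breed had 1 library. The calls were checked on simulated Poisson counts with known changes. These counts held no variation between pigs and no difference in mitochondrial share, so they cannot check the calls against either. Alternatives were 4 other scalings (TMM with edgeR 4.0.16), the longest unigene or the sum of all unigenes of a gene, pseudocounts of 1 and 0.1, folds of 1.5 and 3, RPKM minimums of 0 and 10, and other sources of names. Named were the 5 genes with every unigene, the listed genes past 2-fold or with a mean RPKM of 10 or more, isoform pairs with both forms found, and the 3 genes nearest to ATP2A1; ITPR3, STIM2, the contig_53 pair and the genes from the supplementary list were added after their values were seen. The genes and lists were chosen with earlier results of these data known. The software was R 4.3.3 and Python 3.11.15 with pandas 2.3.3, scipy 1.17.1 and numpy 2.4.6.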

Additional observations from a re-analysis of the deposited data

How the results depend on the processing

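No paired analysis was possible because each breed had 1 library, and no replicate could be left out. The median log2 ratio of the 5 genes was 1.32 as deposited, 0.89 with the same RPKM sum, 0.97 with the median over unigenes set to 0, 0.61 with library totals without the mitochondrial pair, 0.88 with TMM and 1.57 with the unigenes of a gene summed. The number of the 5 genes 2 times or more higher in Shaziling was 3 as deposited and 2 under each other scaling, while the share of all genes with a symbol was 39.2% as deposited and 21.2% to 29.0% under the others. Of the other genes of calcium handling, 10 were past 2-fold as deposited, 5 with the same sum, with a median of 0 or with TMM, 4 without the mitochondrial pair and 4 at a fold of 3. Without the mitochondrial pair, 2 (PLN and HRC) were 2 times or more higher in Yorkshire. The change of the fast to slow pump ratio was 2.04 times under every scaling, 2.42 with summed unigenes and 4.24 with contig_126, an alternative chosen after seeing the data. The longest unigene and both pseudocounts kept these counts within 1.5 times. Depth limits DHRS7C, whose shorter unigene had 10 Yorkshire reads, and ORAI3 with 2.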

Other observations

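Unigenes of the same gene often differed in their ratio between the libraries. Among 179 genes with a RefSeq symbol and more than 1 unigene of 100 reads or more, the largest ratio of a gene was a median of 1.52 times its smallest, and 32.4% of these genes had a spread of 2 times or more. A spread at least as large as that of the DHRS7C unigenes (4.80) was found for 9 of the 179 genes, a count that can include DHRS7C itself. For the spread of the ATP2A1 unigenes (3.94), a pair of them named only through the list of different unigenes, the count was 16 of 179. Unigenes with 3 reads or fewer in a library were left out of these counts. The length of a unigene alone was not accompanied by a steady shift of the ratio. With 100 reads or more, the median ratio was 1.30 for 825 unigenes under 400 bp, 1.39 for 3086 unigenes of 400 to 999 bp, 1.48 for 5069 unigenes of 1000 to 1999 bp and 1.37 for 4683 unigenes of 2000 bp or longer.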
